A study of Mus musculus with 18 samples.

Results

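Cells carrying receptor transcripts of natural killer (NK) cells and group 1 innate lymphoid cells were gated from single-cell RNA profiles of mouse skin. A droplet barcode counted as a cell when it held at least 200 detected genes, at least 500 unique molecular identifiers (UMIs, counts of captured mRNA molecules) and at most 10% mitochondrial UMIs. Members were chosen by their measured UMIs: Ncr1 and Klrb1c together gave at least 2, Cd3d, Cd3e and Cd3g gave none, and Cpa3 and Mcpt4 gave none. Krt5 and Krt14 together had to stay below 0.3% of the cell's UMIs. The gate took 312 of 47251 cells (0.660%), 196 of them from control and 116 from expanded skin. Levels of the gate genes are given as descriptions without a test.

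All mice of both arms underwent back-skin surgery, with an incision close to the tail and a path opened under the skin up to the neck, and only mice of the expanded arm received a hydrogel expander. The labels give no strain, age or sex. Digested live skin cells were profiled 1, 2 or 4 days later in 5 libraries per arm: days 1 and 2 in rounds 1 and 2, and day 4 in round 1. The mice of an arm were pooled in 1 tube per round, so within a round the arm and the droplet reaction cannot be told apart. Each day and round gives a pair of 1 control and 1 expanded library, and values are listed below in the order day 1 round 1, day 1 round 2, day 2 round 1, day 2 round 2 and day 4. The libraries held 17318478 to 73723329 UMIs in kept cells and 12 to 67 gated cells each. Of 46988 distinct barcodes, 263 occurred in more than 1 library, and 0 were gated in more than 1 library.

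NK cells and the related group 1 innate lymphoid cells (ILC1) are lymphocytes without a rearranged antigen receptor. They sense stressed or infected cells through receptors such as NKp46 (Ncr1), NK1.1 (Klrb1c) and NKG2D (Klrk1), kill with perforin and granzymes, and secrete interferon gamma. NK cells depend on the transcription factor Eomes and circulate, whereas ILC1 use T-bet (Tbx21), stay in the tissue and carry residency molecules such as CD49a (Itga1) and Cxcr6. Nkg7 is a protein of the cytotoxic granule that both share.

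The gated cells fell into separate sets, and only 1 of them carried the markers that define NK cells and ILC1. The share of a cell's UMIs from 4 MHC class II genes, with which antigen-presenting cells display peptides, was below 1% in 135 cells (median 0.0277%, highest 0.634%) and above it in 177 cells (lowest 1.58%, median 6.53%). Only 4 of the 312 cells lay between 0.5% and 2%. Nkg7 was detected in 93.3% of the MHC class II low cells and in 1.13% of the MHC class II high cells. Ncr1 was detected in 75.6% of the former and in 1 of the 177 latter, and Klrb1c in 70.4% and 100%. The MHC class II high cells instead carried transcripts of macrophages and dendritic cells: Lyz2 was detected in 92.1%, Il1b in 89.8%, the lectin Cd209a in 75.7% and the Langerhans cell lectin Cd207 in 53.7%. As a set, the 177 MHC class II high cells therefore go against the name NK or group 1 innate cell, but not every single cell does. At 1.58% MHC class II, 1 cell of control day 2 round 2 held 5 Ncr1, 3 Klrb1c and 7 Nkg7 UMIs. At least 2 UMIs of 8 lymphoid genes (Nkg7, Il2rb, Xcl1, Gzmc, Ctsw, Klrk1, Prf1 and Trbc1) were held by 41 of the 177 cells and 133 of the 135. Results are given separately for the MHC class II low and high gated cells. This split was chosen after the values were seen.

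**Figure D1:**
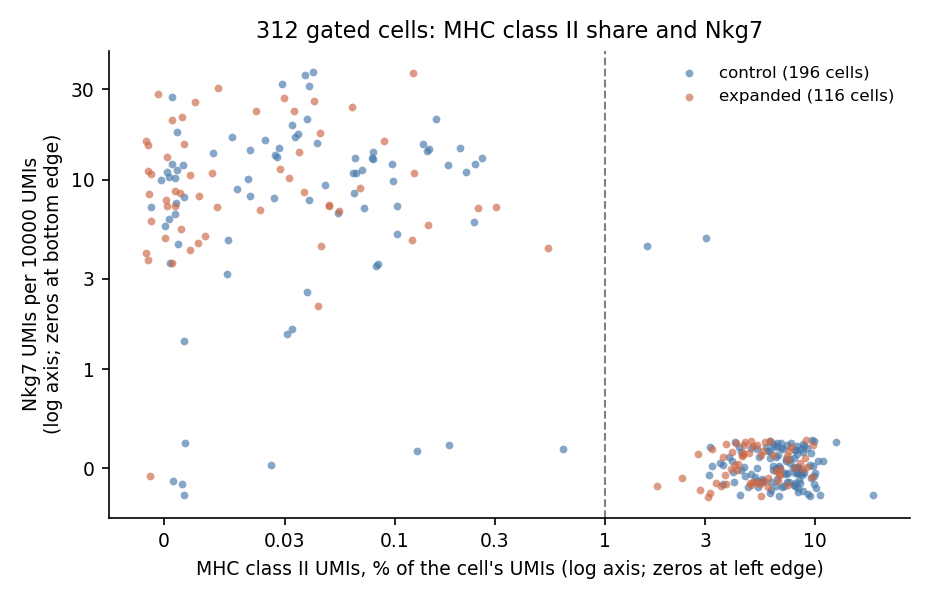
Each point is 1 of the 312 gated cells, with the percent of its UMIs from MHC class II genes on a log x axis and its Nkg7 UMIs relative to its total on a log y axis; zeros are drawn at the edges with small random shifts, and colours mark control and expanded skin. The dashed line at 1% separates 135 cells, 93.3% with Nkg7, from 177 cells, 1.13% with Nkg7, and both arms occur on both sides.

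Klrb1c was detected in MHC class II high cells far more often than in cell types that should lack it. Among all MHC class II high cells that met the Cd3, mast cell and keratin conditions, 757 of 5342 held a Klrb1c UMI, which is 14.2% (95% Wilson interval 13.3% to 15.1%, counting error only). Collagen-high cells held one in 17 of 14411 cases (0.118%) and keratin-high cells in 3 of 1880 (0.160%), at median depths of 10979 and 13510 UMIs. The median depth was 8700 UMIs in the 4584 MHC class II high cells without a gate UMI and 14640 in the gated ones. Per library the share ranged from 9.34% to 31.4%. Ncr1 was found in 2 of the same 5342 cells and Nkg7 in 22.

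Klrb1c lies on chromosome 6 from 128778485 to 128789215 on the minus strand of GRCm38 (mm10), and its relative Klrb1b, an inhibitory receptor, lies nearby from 128813706 to 128826331. Ncr1 lies on chromosome 7 from 4337724 to 4345164 and Nkg7 on the same chromosome from 43437073 to 43438249, both on the plus strand. Libraries of this kind read transcripts close to the 3′ end. The last 500 bases of the Klrb1c transcript hold 471 words of 30 bases, and 0 of these occur in the transcripts of Klrb1, Klrb1a, Klrb1b or Klrb1f. Further upstream, runs of 108 bases are shared with Klrb1a and of 89 bases with Klrb1b. Klrb1b itself was detected in 98.9% of the MHC class II high gated cells and in 41.3% of those without a gate UMI. Its part in the Klrb1c counts was not tested.

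The mixture shifted with the number of gate UMIs. Of the 312 gated cells, 196 held exactly 2 UMIs of Ncr1 and Klrb1c, 30.1% of them with Nkg7 and 65.3% of them MHC class II high. Among the 116 cells with 3 or more UMIs, 59.5% had Nkg7 and 42.2% were MHC class II high. Just outside the gate, 715 cells with a single UMI had Nkg7 in 12.2% and were MHC class II high in 81.3%. A further 99 cells met every other condition but held a Cd3 UMI, and 89.9% of these had Nkg7. Cpa3 or Mcpt4 kept out 7 cells and the keratin limit 0.

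The 135 MHC class II low cells carried receptors of NK cells and ILC1. They comprised 79 control and 56 expanded cells, from 3 to 29 per library, with a median of 6916 UMIs and 2161 genes. Both gate receptors were detected in 62 cells, Ncr1 alone in 40 and Klrb1c alone in 33. Klrk1, the activating receptor NKG2D, was detected in 93.3% and Klrd1, the CD94 chain that pairs with NKG2 receptors, in 61.5%. The corresponding shares in 3086 gated T cells (at least 2 Cd3 UMIs, no gate UMI, median 4532 UMIs) were 54.7% and 34.3%. In collagen-high cells they were 0.715% and 0.389%. After thinning every cell to 2000 UMIs, which dropped 1 MHC class II low cell and 139 T cells, Klrk1 was left in 73.9% against 44.6% and Klrd1 in 29.1% against 23.9%.

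Some effector transcripts were more frequent in these cells than in the gated T cells, and others overlapped in level. Xcl1, a chemokine that attracts cross-presenting dendritic cells, was detected in 85.9% of the MHC class II low cells and 26.8% of T cells (81.3% and 22.5% after thinning). The granzyme gene Gzmc, on chromosome 14 from 56231441 to 56234656, was detected in 68.9% and 10.1% (67.9% and 7.80% after thinning), beside 2.89% of collagen-high cells. The UMIs of the cells of a library were summed and scaled to counts per 1000000 UMIs (CPM). Gzmc ranged from 7949 to 28488 CPM in the 9 libraries with at least 5 MHC class II low cells (median 11378). In T cells it ranged from 458 to 3983 CPM over 10 libraries (median 1209), so the ranges did not overlap. Prf1, the pore-forming perforin, was detected in 60.0% against 23.7%, and Tbx21 in 44.4% against 9.56%. Eomes was detected in 21.5% against 0.421%, Gzma in 13.3% against 1.13% and the interferon gamma gene Ifng in 21.5% against 5.67%. The shares of Prf1, Tbx21, Eomes, Gzma and Ifng are without thinning, and the T cells had the lower median depth. The T cells also leave out every cell with a gate UMI. Among these were 99 cells with a Cd3 UMI and at least 2 gate UMIs, 89.9% of them with Nkg7. The levels of other effector genes overlapped between the classes. Gzmb, another granzyme, had a median of 175 CPM in the MHC class II low cells and 166 CPM in T cells, and the chemokine gene Ccl3 had medians of 53.6 and 40.8 CPM. Tnf, the tumour necrosis factor gene, was at a median of 21.0 CPM in the MHC class II low cells (0 to 74.7) and 44.9 CPM in T cells (25.1 to 79.2).

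**Figure D2:**
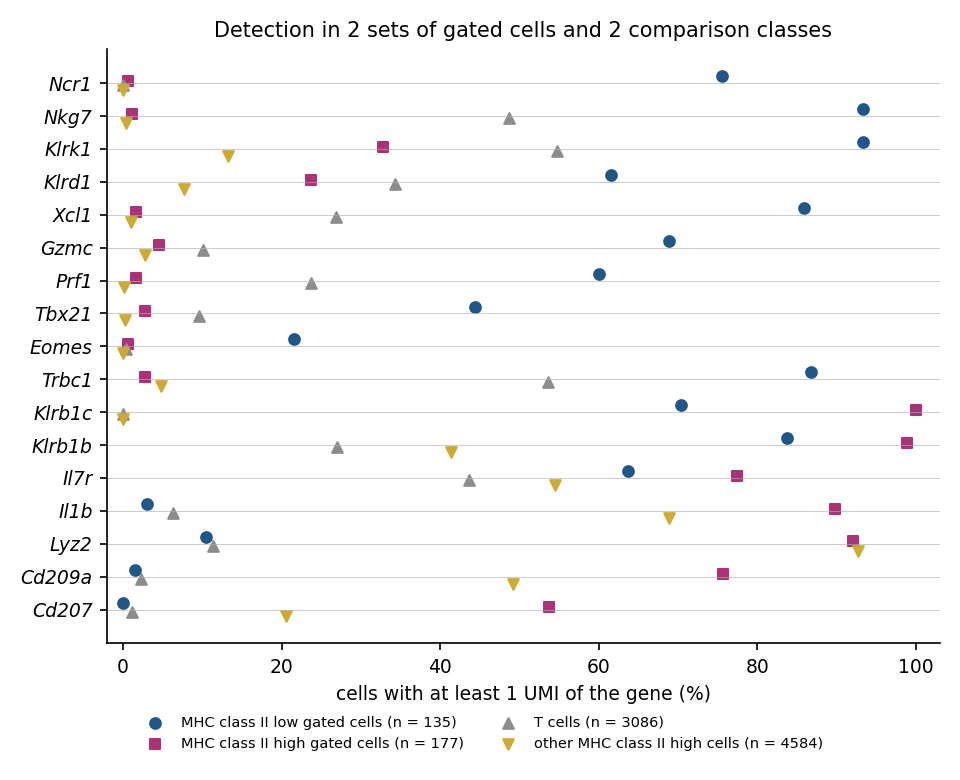
The x axis gives the percent of cells with at least 1 UMI of the gene named on the y axis, in the 135 MHC class II low and 177 MHC class II high gated cells, 3086 gated T cells and 4584 MHC class II high cells without a gate UMI. Nkg7, Klrk1, Xcl1 and Gzmc are highest in the MHC class II low cells, and Il1b, Cd209a and Cd207 in the MHC class II high gated cells; Ncr1 and Klrb1c are 0 in the comparison classes by construction.

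Receptors and regulators were compared by level between the same classes. Tyrobp, the signalling adaptor DAP12, ranged from 404 to 1434 CPM over the MHC class II low libraries (median 864) and from 77.4 to 498 in T cells (median 136). Il2rb, the receptor chain shared by interleukins 2 and 15, had medians of 1188 and 485 CPM, Ctsw, a protease of cytotoxic cells, of 1375 and 364 CPM, and Ikzf2, the transcription factor Helios, of 850 and 473 CPM. The ranges of Ctsw did not overlap, and those of Tyrobp, Il2rb and Ikzf2 overlapped in part. Gata3 ranged from 52.6 to 264 CPM in the MHC class II low cells and from 55.2 to 119 CPM in T cells. Rgs1, a regulator of chemokine signalling, ranged from 1167 to 5177 and from 1631 to 7132 CPM, so neither gene separated the classes. Cd7 was lower in the MHC class II low cells in these libraries, at 29.9 to 234 CPM against 328 to 1294 CPM in T cells. These comparisons use classes built from the same counts and carry no test.

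Genes that mark other lymphocytes were uneven in the MHC class II low set. Trbc1, a constant region of the T cell receptor beta chain, was detected in 117 cells (86.7%), and 113 of these held no UMI of Trac, the alpha chain. Trac was detected in 5 cells. Of the gamma delta receptor genes, Tcrg-C1 had no UMI in the 135 cells, which allows a share of cells with a UMI of up to 2.22% (counting error only, and no limit on the cells that express the gene), whereas it was detected in 28.9% of gated T cells. Some UMI of the Tcrg constant genes was present in 50 cells, the variable gene Trdv4 in 41 cells and Trdc in 25.2%. The Cd3 condition cannot remove a T cell whose Cd3 mRNA was not captured. Klrg1, a receptor of mature NK cells and of ILC2, also had no UMI, and it was detected in 5.74% of T cells. S1pr5, which lets NK cells leave tissue, was detected in 0.741%. Gata3 was detected in 46.7% of the MHC class II low cells and in 49.1% of 1054 cells of the ILC2 gate (median 11583 UMIs). That gate used Gata3 and Il1rl1 together, and 14.8% of its cells were MHC class II high, so it is only a loose reference for ILC2.

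Marker lists were summed in the same cells as a description. The NK list holds the gate genes Ncr1 and Klrb1c, and the dendritic list holds the 4 MHC class II genes of the split. The mast cell list holds Cpa3 and Mcpt4, and the keratinocyte list Krt5 and Krt14, which the gate limits. The sums of these lists were thus partly set in advance and do not support a name for the cells. The 12 NK and group 1 markers summed to 6121 to 9327 CPM in control and 5715 to 8211 CPM in expanded libraries of the MHC class II low cells. In the MHC class II high cells they summed to 181 to 348 and 228 to 386 CPM. In the MHC class II low cells the 13 T cell markers, of which 6 were at 0 including the 3 gated Cd3 genes, summed to 477 to 1373 and 478 to 1346 CPM. The 8 gamma delta markers (4 at 0) summed to 192 to 572 and 89.7 to 368 CPM. The 10 ILC2 markers (1 at 0) summed to 289 to 967 and 234 to 492 CPM, and the 8 ILC3 markers (4 at 0) to 0 to 32.7 and 0 to 176 CPM. The 10 dendritic and Langerhans markers, MHC class II included, summed to 396 to 1017 and 410 to 1075 CPM there, but to 65308 to 87799 and 49405 to 70517 CPM in the MHC class II high cells. Markers of B and plasma cells (7, 5 at 0) summed to at most 75.3 and 133 CPM in the MHC class II low cells, and those of mast cells (8, 6 at 0), basophils (7, 5 at 0) and neutrophils (8, 4 at 0) to at most 421 CPM in any library. Macrophage markers (10, 1 at 0) summed to 213 to 318 and 73.6 to 375 CPM, keratinocyte markers (9, 1 at 0) to 25.1 to 87.1 and 0 to 164 CPM, and endothelial markers (7, 3 at 0) to 8.16 to 93.8 and 0 to 29.9 CPM.

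Within the MHC class II low cells, Eomes and the residency gene Itga1 marked mostly different cells. Eomes was detected in 29 cells and Itga1 in 45, and 3 cells held both. Neither was detected in 64 cells. In cells with an Eomes UMI the granzyme gene Gzma was found in 55.2%, against 1.89% of those without. Its summed level was higher in the Eomes-positive cells in 6 of 7 libraries that held both kinds and lower in 0 (medians 3284 and 0 CPM). Ccl5, a chemokine of cytotoxic lymphocytes, was higher in 7 of 7 libraries (medians 6079 and 154 CPM). Prf1 was higher in 7 of 7 (632 and 218 CPM), the transcription factor gene Irf8 in 7 of 7 (1411 and 301 CPM), and the death ligand Fasl and the Ly49 receptor gene Klra4 in 6 of 7 each.

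Cells without an Eomes UMI had higher levels of another set. Gzmc was higher in them in 7 of 7 libraries (medians 21285 and 111 CPM), as were the death ligand Tnfsf10 (166 and 0 CPM) and the chemokine receptor Cxcr6 (263 and 0 CPM). Il7r, the interleukin 7 receptor, and Itga1 were higher in them in 6 of 7 libraries each. Nkg7 was detected in 89.7% of Eomes-positive and 94.3% of Eomes-negative cells. Itga1-positive cells held Gzmc in 88.9%, against 58.9% of Itga1-negative cells, and held no Gzma UMI. They also held Cd160, a receptor of cytotoxic lymphocytes, more often (68.9% against 31.1%, with a higher level in 7 of 7 libraries), and their Ncr1 level was lower in 7 of 7 (medians 163 and 320 CPM). The median depth was 4456 UMIs in Eomes-positive and 8528 UMIs in Itga1-positive cells. These splits use measured genes and carry no test.

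**Figure D3:**
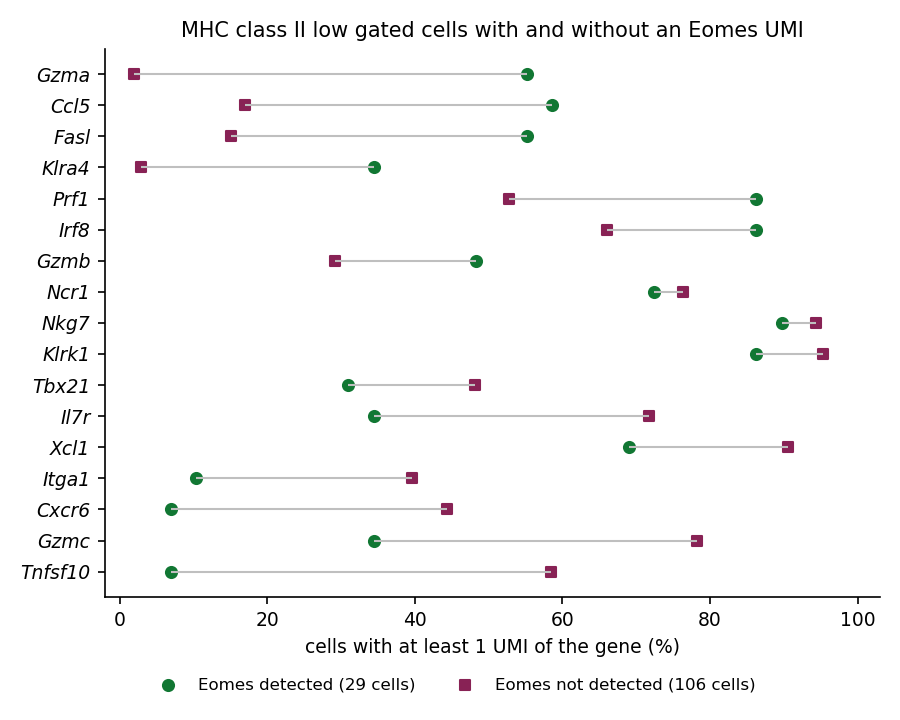
For each gene on the y axis, the x axis gives the percent of MHC class II low gated cells with at least 1 UMI, in 29 cells with an Eomes UMI (circles) and 106 without (squares). Gzma, Ccl5, Fasl and Klra4 are more frequent with Eomes, and Gzmc, Tnfsf10, Cxcr6 and Itga1 without it, whereas Ncr1 and Nkg7 lie close together.

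The first comparison between arms concerned the abundance of these cells. All gated cells together were 0.649% ± 0.354 (SD, n = 5 libraries) of kept cells in control and 0.747% ± 0.291 (n = 5) in expanded skin (exact permutation p = 0.635, two-sided). Of Ptprc-positive cells, the leukocytes, they were 2.28% ± 1.04 and 2.02% ± 0.908 (exact permutation p = 0.683), and of gated plus T cells 10.5% ± 4.50 and 10.2% ± 4.46 (exact permutation p = 0.944). With a gate of at least 1 UMI, which lets in the mostly MHC class II high cells outside the gate, the share of Ptprc-positive cells differed by -3.39 percentage points (exact permutation p = 0.0397, not adjusted).

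The MHC class II low cells made up 0.887% ± 0.542 (n = 5) of Ptprc-positive cells in control skin and 0.968% ± 0.503 (n = 5) in expanded skin (exact permutation p = 0.825). The control values were 0.431%, 1.44%, 0.459%, 1.51% and 0.593%, and the expanded values were 1.79%, 0.718%, 0.463%, 0.835% and 1.04%. The arms overlapped throughout, and 3 of 5 pairs were higher in expanded skin. As a share of all kept cells the means were 0.249% ± 0.168 and 0.336% ± 0.0800 (exact permutation p = 0.294). As a share of MHC class II low plus T cells they were 4.20% ± 1.89 and 4.89% ± 2.14 (exact permutation p = 0.579). The share of Ptprc-positive cells became lower in expanded skin without control day 1 round 1 (difference -0.0331 percentage points), expanded day 1 round 1 (-0.124) or control day 2 round 1 (-0.0261). None of the 18 comparisons over libraries had an adjusted p below 0.143 (Benjamini-Hochberg), and with 5 libraries per arm the exact test cannot give a p under 0.00794.

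The MHC class II high gated cells were 1.39% ± 0.854 of Ptprc-positive cells in control and 1.06% ± 0.563 in expanded skin (exact permutation p = 0.476). Of Ptprc-positive cells, MHC class II high cells that met the Cd3, mast cell and keratin conditions, gated or not, made up 48.2% ± 7.57 and 17.1% ± 7.17. Every expanded library lay below every control library (exact permutation p = 0.00794, the smallest possible, adjusted 0.143, a value set by that limit). Among MHC class II high cells under the same conditions, with or without Ptprc, those with at least 2 Klrb1c UMIs were more frequent in expanded skin in 5 of 5 pairs. The control values were 0.995%, 1.34%, 2.37%, 4.17% and 3.86%, and the expanded values 5.03%, 1.51%, 7.25%, 11.9% and 6.29%. The means were 2.55% ± 1.44 and 6.39% ± 3.76, and the arms overlapped (exact permutation p = 0.0556, adjusted 0.250). Without expanded day 1 round 2 the difference was 5.06 percentage points (exact permutation p = 0.00794, the smallest it can give). In the other 9 repeats without 1 library the p did not fall below 0.05. The smallest difference was 2.47 percentage points, without expanded day 2 round 2. The median depth of these cells was 8765 ± 1655 UMIs in control and 14031 ± 3200 in expanded libraries (exact permutation p = 0.0238, adjusted 0.214). After thinning to 2000 UMIs, 2.64% ± 0.555 and 3.72% ± 1.36 held a Klrb1c UMI (exact permutation p = 0.143), beside 0.0218% of thinned collagen-high cells.

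Single animals gave no clearer difference. Hashing antibodies, whose DNA barcodes mark the cells of 1 mouse, resolved 14 mice per arm in 8 libraries. Gated cells were 2.53% ± 1.26 (SD, n = 14) of Ptprc-positive cells in control mice, with a median of 2.27% between 0.667% and 5.39%. In expanded mice they were 1.92% ± 1.24 (n = 14), with a median of 1.58% between 0.245% and 3.95% (permutation within day and round, p = 0.146, adjusted over 11 comparisons 0.535). MHC class II low cells were 0.967% ± 0.624 and 0.916% ± 0.800 (permutation p = 0.843). On day 4 they were 0.698% ± 0.390 in 4 control mice and 1.31% ± 0.902 in 4 expanded mice (exact permutation p = 0.286, smallest possible 0.0286), opposite in direction to the means over all days.

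**Figure D4:**
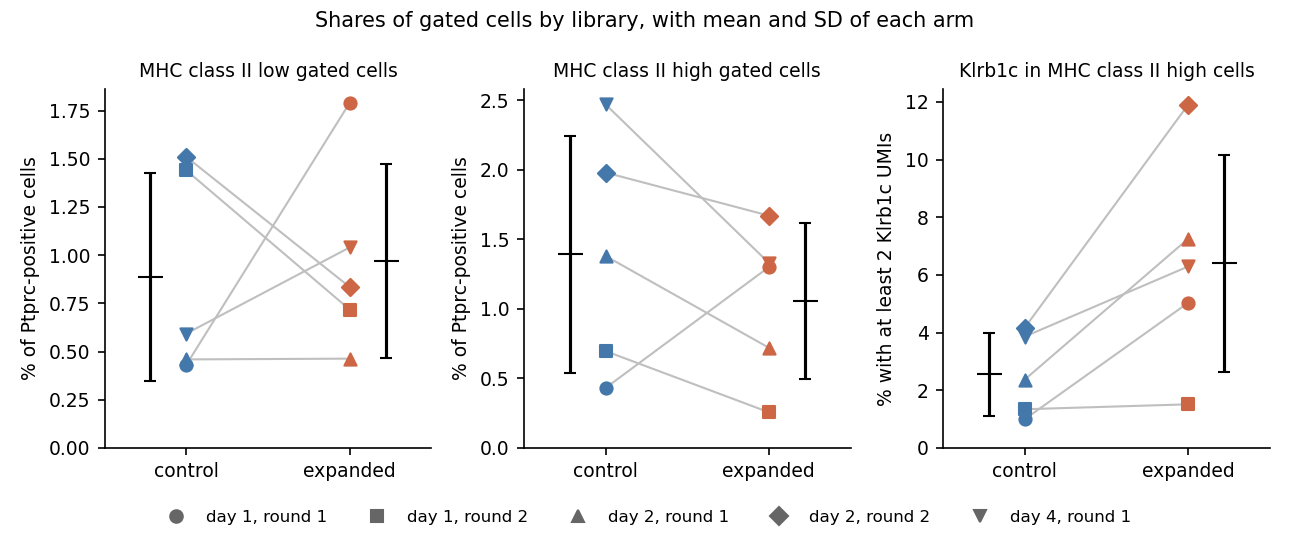
The left and middle panels give MHC class II low and high gated cells as a percent of Ptprc-positive cells. The right panel gives the percent with at least 2 Klrb1c UMIs among MHC class II high cells that met the Cd3, mast cell and keratin conditions. Each marker is a library, gray lines join the libraries of a day and round, and black bars are mean and SD of 5 libraries. The arms overlap in all panels, and the right panel is higher in expanded skin in 5 of 5 pairs.

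The second comparison concerned genes that differed between the arms in the MHC class II low cells. Counts were summed in the 9 libraries with at least 5 such cells, which leaves out control day 2 round 1 with its 3 cells. In edgeR's quasi-likelihood test, which included the day in its model, 8 of 1869 genes (0.428%) had an adjusted p below 0.05, here termed called. Of these 2 (0.107%) were higher and 6 (0.321%) lower in expanded skin, and 184 genes had an unadjusted p below 0.05. Ifng, the signature cytokine of these cells (chromosome 10, 118441046 to 118445892), rose in expanded skin. Its control levels were 0, 26.8, 73.5 and 62.8 CPM, with 52.4 in the library left out, and its expanded levels were 92.2, 73.6, 175, 269 and 749 CPM. Every tested control library lay below every expanded library, although the nearest values were 73.5 and 73.6. The log2 change was 2.24 ± 0.42 (SE, edgeR adjusted p = 0.0382). Of the 112 Ifng UMIs in expanded cells 59 came from a single cell, and the gene was detected in 14 of 79 control and 15 of 56 expanded cells. Its adjusted p stayed below the threshold in 7 of 14 alternatives. It was above it without doublets (0.0501) and without control day 1 round 1 (0.0603), expanded day 1 round 1 (0.0842), control day 2 round 2 (0.165), expanded day 2 round 2 (0.0658), control day 4 (0.132) or expanded day 4 (0.198).

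Zfp36l2, an RNA-binding protein that promotes decay of AU-rich transcripts, rose as well. Control levels were 396, 382, 404 and 515 CPM and expanded levels 1291, 1451, 1263, 927 and 1159 CPM, so the arms did not overlap (log2 change 1.50 ± 0.22, edgeR adjusted p = 0.0147). Here and elsewhere, a lack of overlap between arms only describes the genes named. The share of all tested genes without overlap is not given, so a lack of overlap adds no support to a call. Hsp90b1, a chaperone of the endoplasmic reticulum, fell. Its control levels were 484, 777, 1841 and 1657 CPM, and its expanded levels were 195, 294, 600, 792 and 550 CPM (log2 change -1.48 ± 0.23, edgeR adjusted p = 0.0147). The arms overlapped there, but expanded skin was lower in 4 of 4 pairs. Both genes were below the threshold in 12 of 14 alternatives. Without control day 2 round 2 their adjusted p was 0.165 and 0.173, and both also missed the threshold without expanded day 1 round 1.

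The other called genes, named after their values were seen, were Zeb2, a transcription factor of NK cell maturation, the cell-cycle topoisomerase Top2a, the linker histone genes Hist1h1b and Hist1h1c, and the metallothionein Mt1. Zeb2 control levels were 88.0, 127, 196 and 188 CPM and expanded levels 10.2, 21.0, 62.5, 29.9 and 58.5 CPM, without overlap (log2 change -2.18 ± 0.44, edgeR adjusted p = 0.0421). Hist1h1c did not overlap either, at 163 to 462 CPM in tested control libraries and 0 to 116 CPM in expanded libraries. Top2a and Hist1h1b were highest in the control libraries of day 2 round 2 (437 and 869 CPM) and day 4 (377 and 402 CPM), and 88 of the 248 control Hist1h1b UMIs came from 1 cell. Mt1 took 54 of its 127 control UMIs from 1 cell. Zeb2 stayed below the threshold in 3 of 14 alternatives, Mt1 in 2 of 14, Hist1h1c in 8 of 14, Hist1h1b in 7 of 13 and Top2a in 4 of 13. When each day and round entered the model as a block, which drops day 2 round 1 from both arms, 3 genes were called: Ifng, Zfp36l2 and Hsp90b1, each at an adjusted p of 0.0331.

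Depth and other cell types moved with the arm beside these results. The median depth per MHC class II low cell was 6167 ± 1005 UMIs in control and 7631 ± 882 in expanded libraries (exact permutation p = 0.0476, adjusted 0.250), higher in 5 of 5 pairs, and the unadjusted p was above 0.05 in 8 of 10 repeats without 1 library. The summed level of 8 fibroblast markers, none at 0, was 1364 to 9001 CPM in control (median 2556) and 29.9 to 6111 CPM in expanded libraries (median 138), with 0 of 6 tested called. Without the 6 cells whose collagen UMIs passed 1%, 7 genes were called. Ifng then had a log2 change of 2.22 (adjusted p = 0.0349), whereas Mt1 and Zeb2 were no longer called (0.165 each). The count of called genes was 0 without control day 2 round 2 or expanded day 1 round 1, 3 without control day 1 round 1 or expanded day 2 round 1, and 5 without expanded day 1 round 2. It was 26 without control day 4 and 22 without expanded day 4.

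Most effector and receptor genes of the MHC class II low cells gave no call, as did all but 0.428% of the tested genes. Gzmc ranged from 8051 to 24889 CPM in tested control libraries and from 7949 to 28488 CPM in expanded libraries (log2 difference -0.28 ± 0.20, edgeR adjusted p = 0.725). Prf1 differed by -0.01 ± 0.35 and Gzmb by 0.36 ± 0.62. Gzma was detected in 6 of 79 control and 12 of 56 expanded cells (log2 difference 2.55 ± 0.85, adjusted p = 0.324). Csf2, which encodes a growth factor for myeloid cells, was at 132, 228, 714 and 653 CPM in control and at 41.0, 0, 0, 269 and 527 CPM in expanded libraries. It was lower in 4 of 4 pairs (-1.92 ± 0.63, adjusted p = 0.324). Itga1 was detected in 17 of 79 control and 28 of 56 expanded cells (1.69 ± 0.56, adjusted p = 0.324). Ccl5 (1.94 ± 0.79), Klrd1 (0.82 ± 0.28) and Klrk1 (0.32 ± 0.20) had positive estimates, and Xcl1 (-0.50 ± 0.26), Cxcr6 (-0.56 ± 0.52) and Eomes (-0.39 ± 0.69) negative ones, all above the threshold.

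The remaining genes named by rule gave no call or were too sparse to test. Tbx21 (0.36 ± 0.45), Tnfsf10 (-0.24 ± 0.34), Il7r (0.14 ± 0.40), Ccl3 (0.09 ± 0.89), Ccl4 (0.30 ± 1.02), the proliferation marker Mki67 (-0.76 ± 0.65) and the glucocorticoid-induced gene Tsc22d3 (-0.44 ± 0.27) were tested and not called. Fasl, Tnf, the integrin gene Itga2 and the Ly49 receptor gene Klra8 had 66, 24, 11 and 8 UMIs in all 135 cells and were not tested. Fasl was at 0 to 53.1 CPM in tested control and at 41.0 CPM or more in each expanded library, and it was detected in 13 of 79 control and 19 of 56 expanded cells. The gate genes were not tested, because the gate required at least 2 UMIs of Klrb1c and Ncr1 together and so ties their levels to each other. As a description, Klrb1c was at 88.0 to 194 CPM in tested control and 209 to 325 CPM in expanded libraries. Ncr1 was at 216 to 439 and 100 to 284 CPM. These levels are not read as an effect of the arm.

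**Figure D5:**
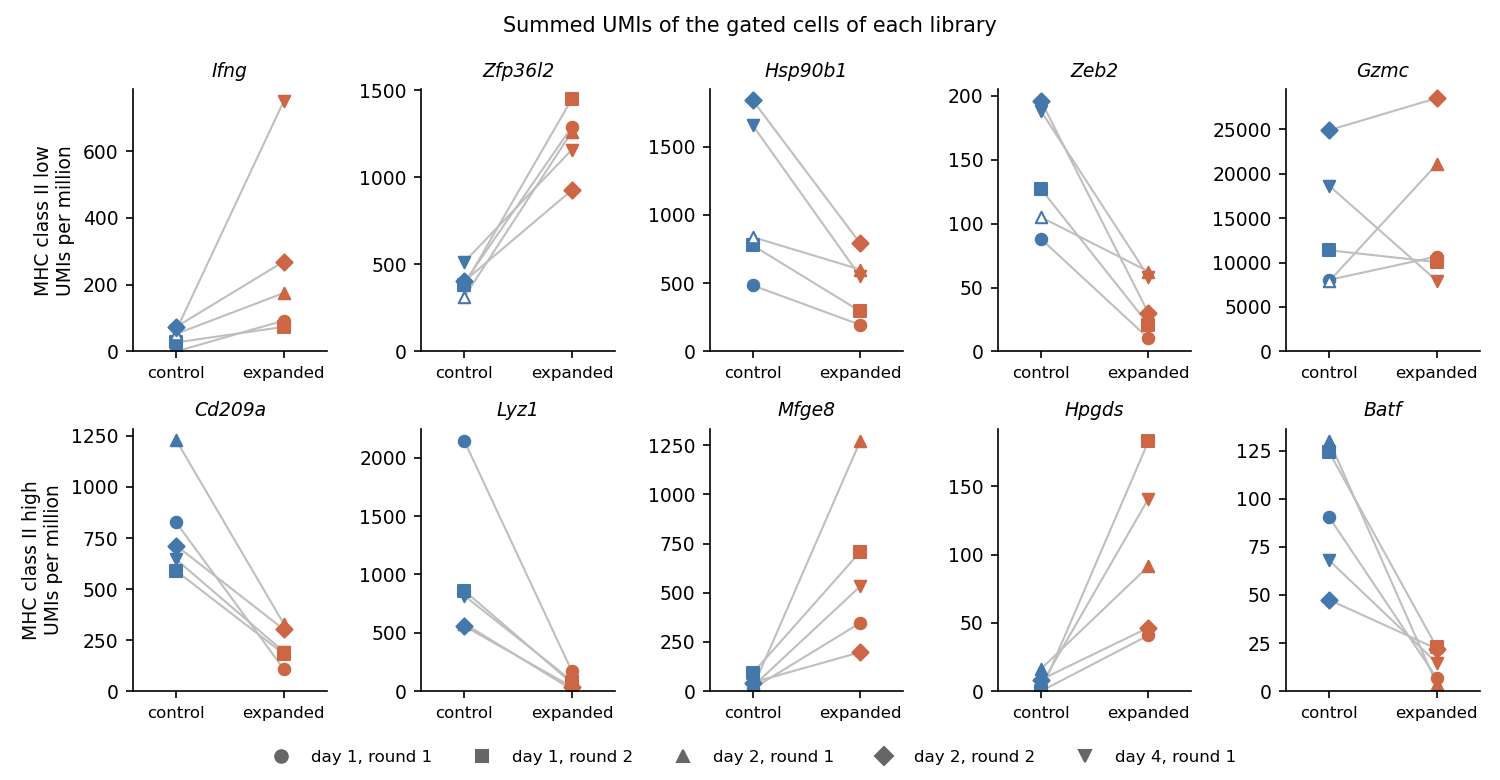
Levels in CPM (y axis) in the summed MHC class II low gated cells (top row) and MHC class II high gated cells (bottom row) of each library, by arm on the x axis, with gray lines joining the libraries of a day and round; the open triangle marks control day 2 round 1, whose 3 MHC class II low cells were not tested. Ifng and Zfp36l2 are higher and Zeb2 lower in all tested expanded libraries, Gzmc overlaps, and the 5 genes of the bottom row do not overlap between arms. The genes other than Gzmc are called genes, so their separation is a description and adds no support.

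Gene groups in the MHC class II low cells were described by counts beside those of all 1869 tested genes. Of these 0.428% were called, 941 had a positive and 928 a negative estimate, and the median was 0.00 on the log2 scale. At that share a small group without a call is no result about its genes. Of 12 tested cytotoxic granule and death ligand genes 0 were called (median -0.02), and of 15 NK receptors and adaptors 0 were called (median 0.31, 12 with a positive estimate). Of 11 effector cytokines and chemokines only Ifng was called (median 0.11). Of 9 genes of circulating NK maturation and 19 lymphocyte transcription factors only Zeb2, which is in both lists, was called (medians -0.09 and -0.06). Of 7 proliferation genes Top2a was called lower, with a median of -1.06 and 6 negative estimates. No gene was called among 10 cytokine receptors (median 0.10), 15 tissue-resident and ILC1 genes (0.17), 14 genes of chemokine receptors, adhesion and egress (-0.08) and 22 activation and immediate early genes (0.32). The same held for 5 interferon response genes (-0.19), 7 glucocorticoid-responsive genes (0.14), 14 glycolysis and hypoxia genes (-0.14), 10 heat shock and cold-inducible genes (-0.13) and 9 genes of MHC class I and antigen processing (-0.40).

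The arm effect in the MHC class II low cells was then set against that in gated T cells of the same libraries. In edgeR's interaction test 6 of 9134 genes (0.0657%) were called, and 501 had an unadjusted p below 0.05. Gzmc fell in expanded T cells (log2 change -1.77, adjusted p = 0.0204), where 7.50% of 11083 genes were called, 1.48% higher and 6.02% lower. The difference between the classes was 1.67 ± 0.28 (edgeR adjusted p = 0.00304), and it was below the threshold in 10 of 10 alternatives. Timp2, an inhibitor of matrix metalloproteinases, had estimates of 0.07 in the MHC class II low cells and -2.64 in T cells (difference 2.29 ± 0.49, adjusted p = 0.0432), and it was below the threshold in 5 of 10 alternatives. The lipocalin Apod, Ifitm1, the chemokine Ccl9 and the matrix protein Tnc had differences of -4.17, -5.27, -6.23 and -6.37. They rested on 79, 12, 44 and 49 UMIs in the MHC class II low cells, with 41 of those of Apod and 41 of those of Tnc in 1 cell each.

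Fibroblast markers also moved with the arm in T cells, from a median of 49905 CPM in control to 4153 CPM in expanded libraries, with 6 of 8 called lower. Neutrophil markers moved the other way in T cells, from 3.65 to 549 CPM in control (median 95.4) to 934 to 6621 CPM in expanded libraries (median 4476), with 7 of 8 called higher. The part of either list in these differences was not tested. Without collagen-rich cells in the MHC class II low set 27 genes differed from T cells. Leaving out libraries gave 19 (without expanded day 1 round 1 or control day 2 round 2), 11 (without control day 1 round 2), 10 (without either day 4 library) and 2 genes (without expanded day 2 round 1). The differences for Ifng (2.41 ± 0.83, edgeR adjusted p = 0.577) and Zfp36l2 (1.19 ± 0.28, edgeR adjusted p = 0.106) did not pass, so neither change is shown to differ from that in T cells. Hsp90b1 and Mt1 were called lower in expanded T cells too (log2 changes -0.70 and -2.15, edgeR adjusted p = 0.0261 and 0.0202). Their differences were -0.65 ± 0.32 and -0.57 ± 0.58 (edgeR adjusted p = 0.891 and 0.995). The differences for Zeb2, Top2a, Hist1h1b and Hist1h1c did not pass either.

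The MHC class II high gated cells had more called genes than the MHC class II low cells, among more genes tested. In edgeR's test over 10 libraries 87 of 4150 genes (2.10%) were called, 20 (0.482%) higher and 67 (1.61%) lower in expanded skin, and 676 had an unadjusted p below 0.05. Cd209a, a lectin of dermal and monocyte-derived dendritic cells, had control levels of 826, 589, 1229, 713 and 645 CPM and expanded levels of 109, 183, 331, 303 and 194 CPM (log2 change -2.05 ± 0.26, edgeR adjusted p = 0.00239). Its relative Cd209b fell too (-2.85 ± 0.50), from 77.9 to 220 CPM in control to 3.52 to 34.1 CPM in expanded libraries. Lyz1, a lysozyme of myeloid cells, fell from 2142, 860, 578, 557 and 817 CPM to 170, 68.5, 14.1, 36.7 and 88.4 CPM (-3.88 ± 0.37, edgeR adjusted p = 1.31e-04). The membrane protein genes Tmem176a (-2.72 ± 0.36) and Tmem176b (-2.53 ± 0.35), the receptor gene Fcrls (-2.79 ± 0.40) and the transcription factor gene Batf (-2.70 ± 0.48) were lower in every expanded library than in any control library. This lack of overlap is again a description, without the share over all tested genes.

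Among the genes that rose in the MHC class II high gated cells, Mfge8, a bridging protein for the uptake of apoptotic cells, had control levels of 12.9, 91.9, 16.3, 44.0 and 23.6 CPM. Its expanded levels were 347, 708, 1271, 198 and 533 CPM (log2 change 3.75 ± 0.53, edgeR adjusted p = 0.00262). Hpgds, a prostaglandin D synthase, ranged from 0 to 16.3 CPM in control and from 40.9 to 183 CPM in expanded libraries (3.71 ± 0.58, edgeR adjusted p = 0.00537). Ptgs1, a cyclooxygenase of prostaglandin synthesis, was at 0 in 5 of 5 control libraries and at 12.2 to 82.5 CPM in expanded libraries (edgeR adjusted p = 0.0111). Msr1, a scavenger receptor (2.18 ± 0.41), C1qa, a complement component (3.98 ± 0.74), and Plau, a plasminogen activator (1.75 ± 0.34), rose, as did the coreceptor Cd72 (2.11 ± 0.48). Ifitm1, an interferon-induced membrane protein, was at 0, 16.2, 24.4, 20.3 and 16.2 CPM in control and at 40.9, 0, 415, 1306 and 315 CPM in expanded libraries (4.42 ± 0.60, edgeR adjusted p = 0.00248). Klrd1 rose from 0 to 20.3 CPM in control to 0 to 156 CPM in expanded libraries (2.25 ± 0.52, edgeR adjusted p = 0.0385).

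Few genes of the other fixed groups passed in the MHC class II high gated cells, where 2.10% of all tested genes were called. Rbm3, a cold-inducible RNA-binding protein, rose from 584 to 787 CPM in control to 1267 to 2147 CPM in expanded libraries (1.09 ± 0.19, edgeR adjusted p = 0.0116). The heat shock gene Hspa1b fell (-1.60 ± 0.34, edgeR adjusted p = 0.0261), and these were the called genes among 12 tested of that group. H2-K1 (-1.40 ± 0.29) and H2-D1 (-0.91 ± 0.20) fell among 14 MHC class I genes, and Batf and Rora among 15 lymphocyte transcription factors. All 9 tested glucocorticoid-responsive genes had negative estimates, beside 2053 of all 4150 tested genes (medians -0.68 and 0.01), and 0 were called. In the test of the difference from the MHC class II high cells without a gate UMI, 0 of 10 genes of this group were called. Of 3 tested cytotoxic granule genes 0 were called. Gzmc was too sparse to test, at 376 CPM in control day 2 round 2 and 0 to 5.41 CPM in the other libraries.

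Collagen transcripts fell in the same comparison. Col1a2 was at 335, 9522, 106, 38.9 and 649 CPM in control and at 102, 0, 10.6, 7.33 and 8.84 CPM in expanded libraries (log2 change -5.51 ± 0.94, edgeR adjusted p = 0.00860). The 8 fibroblast markers, none at 0, summed to 144 to 33579 CPM in control (median 1148) and 41.2 to 334 CPM in expanded libraries (median 112), and 4 of 6 tested were called lower. The 10 macrophage or monocyte markers, none at 0, summed to 4184 to 9614 CPM in control (median 6864) and 2365 to 5673 CPM in expanded libraries (median 2493), with 1 of 7 tested called higher and 2 lower. The 8 neutrophil markers (2 at 0, 0 tested) summed to 0 to 32.2 CPM (median 8.85) and 27.3 to 114 CPM (median 56.2). The part of these lists in the changes of this set was not tested. Control day 1 round 2 stood apart, with 5369 collagen UMIs in its gated cells, 2271 of them in 1 cell. Without the 5 collagen-rich cells of this set 83 genes were called, and with the pair as a block 129, of which 85 were shared with the 87. Leaving out control day 2 round 1 gave 30 called genes, control day 4 gave 24, expanded day 1 round 2 gave 55, expanded day 2 round 1 or round 2 gave 37 each, and expanded day 4 gave 28.

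Set against the 4584 MHC class II high cells without a gate UMI, 2 of 9315 genes (0.0215%) differed in their arm effect, and 414 had an unadjusted p below 0.05. C1qa rose in the gated cells but fell in the others by 1.17 on the log2 scale (difference 4.59 ± 0.73, edgeR adjusted p = 0.00930), where 16.7% of 10692 genes were called, 7.41% higher and 9.26% lower. Stat4, a signal transducer of the interleukin 12 receptor, fell in the gated cells, from 26.6 to 90.3 CPM in control to 0 to 6.81 CPM in expanded libraries (-3.90 ± 0.73, edgeR adjusted p = 0.0153). In the other cells it was not called (0.54, difference -4.86 ± 0.75, edgeR adjusted p = 0.00930). C1qa rested on 226 UMIs and Stat4 on 60 in the gated cells. The count was 0 without expanded day 4, 1 without control day 2 round 1, expanded day 2 round 1 or control day 4, 9 without expanded day 2 round 2, 14 without control day 1 round 2 and 6 without collagen-rich cells.

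Over all 312 gated cells together, 63 of 5594 genes (1.13%) were called in edgeR's test, 15 (0.268%) higher and 48 (0.858%) lower in expanded skin, with 706 at an unadjusted p below 0.05. Of these 63 genes 48 were also called in the MHC class II high cells and 1 in the MHC class II low cells, where 16 of them could be tested. The 10 largest increases with 1 sign in all pairs were those of Ptgs1, C1qa, Hpgds, Mfge8, Msr1, Cd72, Plau and Klrd1, followed by the RNase P subunit Rpp21 (log2 change 1.27 ± 0.25) and the transcriptional coregulator Cited2 (1.21 ± 0.25). The 10 largest such decreases were those of Col1a2, Lyz1, the chemokine Cxcl3 (-3.58), Serping1 (-3.36), fibronectin Fn1 (-3.00), Cd209b, Fcrls, Pmp22 (-2.65), Siglecg (-2.44) and Cd209a. Rgs1 rose from 548 to 1538 CPM in control to 1802 to 3441 CPM in expanded libraries (0.92 ± 0.20, edgeR adjusted p = 0.0419). It was called in neither set alone (low 0.72 ± 0.26, edgeR adjusted p = 0.355; high 1.55 ± 0.51, edgeR adjusted p = 0.128), and the sets' mix varied between libraries, from 19.4% to 73.7% MHC class II low. Ifng had an adjusted p of 0.0625 here. At a gate of at least 3 UMIs 4 genes were called, 2 of them among the 63. The count was 36 without control day 1 round 1, 37 without control day 1 round 2, 25 without control day 2 round 1 and 98 without control day 2 round 2. It was 19, 29, 7 and 20 without the expanded libraries of the same days and rounds, in that order. With the pair as a block 90 genes were called, 57 of them among the 63.

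The gene groups over all gated cells gave few calls each, beside 1.13% called and a median of 0.02 over all tested genes. At that share a small group without a call is no result about its genes. Klrd1 was called among 24 tested NK receptors and adaptors (median log2 change 0.31), Rgs1 higher and Tmem176a and Tmem176b lower among 18 tissue-resident and ILC1 genes (0.28), and Batf lower among 26 transcription factors (-0.11). Ifitm1 was called among 22 interferon response genes (0.44), Rbm3 higher and Hspa1b lower among 13 heat shock and cold-inducible genes (-0.36), and H2-K1 lower among 14 MHC class I genes (-0.29). All of these genes except Rgs1 were also called in the MHC class II high gated cells. None of them was called in the MHC class II low cells, so the calls are not credited to NK cells or ILC1. Klrd1, Ifitm1, Rbm3 and Hspa1b were also called in gated T cells. No gene was called among 12 cytotoxic granule genes (-0.08), 15 effector cytokines and chemokines (0.28), 13 cytokine receptors (0.06), 10 maturation genes (0.18) and 14 chemokine receptor, adhesion and egress genes (-0.24). The same held for 27 activation genes (0.01), 9 glucocorticoid-responsive genes (-0.62), 19 glycolysis and hypoxia genes (0.03) and 9 proliferation genes (-0.35).

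Whether the arm effect over all gated cells differed between day 2 and day 1 was tested in 6779 genes. By edgeR 0 (0%) were called and 220 had an unadjusted p below 0.05, and DESeq2 called 2. The smallest adjusted p belonged to Igfbp4 (0.207), Ifitm3 (0.323), Lrp1, Procr and Ifitm1 (0.388 each). Against T cells, 1 of 9858 genes (0.0101%) differed over all gated cells: Hba-a1, a hemoglobin gene with 13 UMIs in the gated cells (difference -8.05 ± 0.82, edgeR adjusted p = 0.00111). Mfge8 (4.13 ± 0.69), Hbb-bs (-7.08 ± 1.09), Il11 (-7.87 ± 1.37) and Cxcl3 (-5.19 ± 0.92) followed at an adjusted p of 0.0861 each. The count was 0 without control day 2 round 2 and between 2 and 10 without control day 1 round 2 or any expanded library of days 1 and 2.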

How the data were processed

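UMI counts per gene and barcode were deposited as filtered matrices for 10 libraries, and hashtag counts for 8. The submitters' processing notes name Cell Ranger 6.1.2 and the mm10 build. The annotation version was not given in the sources used here. All values were computed from these deposited counts (Python 3.11.15, scipy 1.17.1, R 4.3.3). The mRNA and hashing samples of control day 1 round 2 carry titles that match the library type of the other, and each matrix was used by its content. Every value column belongs to a sample. The members, marker lists and gene lists were chosen with earlier results of these data known.

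T cells had at least 2 Cd3 UMIs and no gate UMI, ILC2 at least 2 UMIs of Gata3 and Il1rl1, collagen-high cells at least 1% collagen UMIs and MHC class II below 1%, and keratin-high cells at least 1% keratin UMIs. Doublets, called per library with Scrublet in scanpy 1.11.5, stayed in, 20 of them among gated cells. Hashtags were assigned with Seurat 5.3.0 (quantile 0.99), which gave 21513 cells and 263 gated cells. Counts summed per library (at least 10 gated cells, or 5 of a set) were tested with edgeR 4.0.16 (limma 3.58.1): quasi-likelihood, TMM, low-count filter, day as a term, p adjusted over all tested genes (Benjamini-Hochberg) and a threshold of 0.05. In simulated data 32% of log2 changes of 1 and 87% of those of 2 were recovered over all gated cells, 39% and 89% in MHC class II low cells, and 22% and 89% in MHC class II high cells. Pools of several mice share a droplet reaction, so p-values measure the spread between libraries.

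Labels name the day and round that paired libraries share. Deviations from the arm means correlated within pairs at 0.129, 0.279, 0.114, 0.207 and 0.302.

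Named genes were 25 fixed ones (1 of them is not reported here), the 10 largest called changes in each direction with 1 sign in all pairs, up to 4 called genes per list, and the 5 smallest adjusted p of the day and T cell differences. Genes outside this rule (the called genes of the MHC class II low set, the genes differing by set, H2-D1, Rora and genes of the descriptive comparisons) were chosen after their values were seen. Alternatives were DESeq2 1.42.0, no filter, thinning, other gates, doublets or collagen-rich cells removed, the pair as a block, mice as units and each library left out. Everything on MHC class II low or high cells alone was added after seeing the data.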

Additional observations from a re-analysis of the deposited data

Results flagged for a closer look

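In 3 measures a single library lay far from the rest of its arm, by a criterion that chance meets in about 1 in 20 groups. Gated cells made up 2.30% of gated plus T cells in expanded day 1 round 2, the lowest expanded library. In the MHC class II low cells, Zfp36l2 was at 515 CPM in control day 4 against 382 to 404 CPM in the other tested control libraries, and Ifng was at 749 CPM in expanded day 4 against 73.6 to 269 CPM in the other expanded libraries.

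Arm effects that differed between cell classes in a test of the difference itself were those of Gzmc (1.67), Timp2 (2.29), Apod (-4.17), Ifitm1 (-5.27), Ccl9 (-6.23) and Tnc (-6.37) between MHC class II low and T cells, on the log2 scale. Between all gated cells and T cells Hba-a1 differed (-8.05). Between MHC class II high gated cells and those without a gate UMI, C1qa (4.59) and Stat4 (-4.86) differed.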

How the results depend on the processing

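Expanded minus control differences in shares changed sign under some settings. With a gate of at least 1 UMI the gated share differed by -0.497 percentage points of kept cells. The same gate kept the sign for Ptprc-positive cells but took the difference from -0.254 to -3.39 (exact permutation p = 0.0397). After thinning the share of gated plus T cells differed by 0.00884. MHC class II low cells per mouse differed by 0.608 on day 4 alone. Leaving out 1 library at a time gave -0.0124 to 0.223 of kept cells, -0.608 to 0.0501 of Ptprc-positive cells and -1.32 to 1.69 of gated plus T cells. For MHC class II low cells it gave -0.124 to 0.237 of Ptprc-positive cells. For MHC class II high gated cells it gave -0.0679 to 0.0925 of kept cells and -2.03 to 0.626 of MHC class II high gated plus T cells. The difference in median depth was 1139 to 1834 UMIs for low and 1876 to 7443 for high cells. MHC class II high cells with at least 2 Klrb1c UMIs differed by 2.47 to 5.06, those with at least 1 by 4.39 to 9.90, and after thinning by 0.588 to 1.53.

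Numbers of called genes moved by more than 1.5 times under several settings. Over all gated cells they were 343 without the filter, 136 by DESeq2, 6 after thinning, 21 without doublets, 4 at a gate of 3 UMIs, 29 with at least 20 members per library, 14 with mice as units, and 7 to 98 without 1 library. For day 2 against day 1 they were 25 without the filter, 2 by DESeq2, 1 at 3 UMIs, and 0 to 2 without 1 library. Against T cells they were 110, 17, 24 after thinning, 3 without doublets, 9 at 3 UMIs, and 0 to 10 without 1 library. For low cells they were 73 without the filter, 5 by DESeq2, 4 without doublets and 0 to 26 without 1 library, and for high cells 299, 166 and 24 to 104. Low against T cells gave 27 without collagen-rich cells and 2 to 19 without 1 library, and high cells in against out of the gate 6 and 0 to 14. The replicate block by day and round gave 3 calls in low cells, 90 over all gated cells and 129 in high cells.

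Over all gated cells the log2 changes of uncalled genes changed sign. Gzmb was -0.09 with at least 20 members and -0.38 to 1.29 without 1 library. Gzmc was 0.00 by DESeq2, 0.12 after thinning, 0.03 without doublets, 0.17 with the block and -0.26 to 0.51 without 1 library. Prf1 was 0.79 after thinning, 0.43 at 3 UMIs, 0.28 with mice as units and -0.60 to 0.26 without 1 library. Xcl1 was 0.27 at 3 UMIs, 0.21 with mice and -0.38 to 0.01 without 1 library. Ccl3 was -0.69 at 3 UMIs, and Ccl4 was -0.51 after thinning, -0.11 at 3 UMIs, -0.32 with mice and -0.02 to 0.63 without 1 library. With mice as units Eomes was 0.01, Cxcr6 0.36, Mki67 -0.02 and Procr 0.10, and at 3 UMIs Timp2 was 0.54 and Stat4 0.01. Leaving out 1 library gave Tnfsf10 -0.47 to 0.05, Ccl5 -0.08 to 1.15, Top2a -1.13 to 0.43 and Hist1h1b -1.79 to 0.06. The cause of these shifts was not tested. The 3 to 29 low cells per library limit what could be detected.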
